A study of Mus musculus with 2 samples.

Results

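The 10 genes described here encode the machinery by which a cell shows peptides from its own cytosol on MHC class I molecules. They are H2-K1, H2-D1, B2m, Tap1, Tap2, Tapbp, Psmb8, Psmb9, Nlrc5 and Erap1, chosen by name, with earlier results of these data known, from the 18049 genes listed in the expression tables. Their levels were read in 5 classes of dendritic cells (DCs) in 2 single-cell libraries, to ask whether type 1 conventional DCs (cDC1s) stood apart and what differed between the libraries. Live MHCIIhi CD11c+ B220- cells had been sorted from lymph nodes of B6 mice, and messenger RNA and antibody tags had been read from the same cells (CITE-seq). The naive library came from unimmunized mice, and the papain library from mice given ovalbumin plus papain, a protease allergen, in both rear footpads 1 day earlier. The popliteal nodes were taken from the immunized mice. For the naive mice the sources name both popliteal and pooled skin-draining nodes, so the site of the nodes and the immunization cannot be told apart. Mice of both sexes, 6 to 12 weeks old, were used for all strains, while the number pooled was not given in the sources used here. The classes are those the authors set from the antibodies: Langerhans cells (LCs), cDC1s, and type 2 conventional DCs (cDC2s) that were low, intermediate or high for CD301b (CD301b-lo, CD301b-int and CD301b-hi). Each condition was 1 library, so no test between conditions was possible and no p-value is given. Intervals are 95% and cover counting error of unique molecular identifiers (UMIs) only, neither the spread between mice nor that between cells.

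Peptides for MHC class I are cut from cytosolic proteins by the proteasome. In immune cells, inducible subunits such as Psmb8 and Psmb9 take the place of the constitutive ones and form the immunoproteasome. The peptides are carried into the endoplasmic reticulum by the transporter that Tap1 and Tap2 form together, are trimmed there by the aminopeptidase Erap1, and are loaded with the help of tapasin (Tapbp) onto a heavy chain (H2-K1 or H2-D1) paired with B2m, the shared light chain. Nlrc5 is the transactivator of class I genes and acts through the SXY module of their promoters, while interferons raise many of the same genes through STAT and IRF factors. cDC1s are known for cross-presentation, the display of taken-up antigen on class I molecules to CD8+ T cells.

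Of the 10 genes, 7 lie on chromosome 17 in the mouse MHC region, and 3 lie elsewhere. In GRCm38, the assembly named mm10 in the labels, B2m is at chr2:122147687-122153082, Nlrc5 at chr8:94434335-94527272 and Erap1 at chr13:74639573-74693205. Psmb9 (chr17:34182030-34187330), Tap1 (chr17:34187556-34197225), Psmb8 (chr17:34198195-34201454) and Tap2 (chr17:34204479-34216321) are neighbours, with H2-K1 (chr17:33996012-34000619) and Tapbp (chr17:33919478-33929290) on one side and H2-D1 (chr17:35263094-35267497) on the other. The gene models of B2m and Patl2, of Erap1 and Cast, of Tapbp and a long noncoding RNA, and of Nlrc5 and 3 noncoding genes overlap, so their counts could share reads. H2-K1 and H2-D1 have near-identical copies among the H2-Q and H2-K genes, and the split of reads between such copies is uncertain.

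Promoter windows of 250 bases before the gene start were found in the RefSeq table (GRCm38.p6) for 8 of the 10 genes, all but Tap2 and Nlrc5. Stretches of them are shown because Nlrc5 and interferon factors are known to act on this pathway through letters of these kinds. TGACG, the letters of the X2 box, and ATTGG, the inverted CCAAT of the Y box, were searched on both strands and held by 17.8% and 33.8% of 32851 windows. Both were in the windows of H2-K1, H2-D1, B2m, Tap1 and Psmb9, and ATTGG alone was in that of Tapbp. In H2-K1, H2-D1 and B2m, 20 bases stood between TGACG and ATTGG. This spacing was looked for after the matches had been seen, and it was held by 30 of the 32851 windows (0.0913%), of 26 genes, H2-M3 among them. The 30-base stretches read as follows on the strand of each gene, with both motifs in capitals.
H2-K1, chr17:34000359-34000388, minus strand: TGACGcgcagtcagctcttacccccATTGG
H2-D1, chr17:35262993-35263022, plus strand: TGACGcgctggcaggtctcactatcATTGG
B2m, chr2:122147609-122147638, plus strand: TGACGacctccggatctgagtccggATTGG
The stretches of H2-K1 and H2-D1 were identical at 23 of 30 bases, while that of B2m shared 13 with H2-K1 and 12 with H2-D1, 10 of which are the motifs themselves. The H2-K1 stretch lies inside the longer of its RefSeq gene models, and those of H2-D1 and B2m end 72 and 49 bases before the gene start.

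Further letters searched were GAAA, any 2 bases and GAAA, the core of the interferon-stimulated response element (ISRE, 2.98% of windows), TTCNNNGAA, the GAS site of STAT factors (7.02%), GGG, any 5 bases and CC, an NF-kB site (45.8%), and GGAA, any 2 bases and GAAA, a PU.1-IRF composite (2.30%). The letters of the ISRE core, in this strict form, were in the window of B2m only, next to NF-kB letters (chr2:122147548-122147570, plus strand), where the motifs are in capitals.
B2m: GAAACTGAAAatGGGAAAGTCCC
The GAS letters were in the window of Psmb8 only, and the PU.1-IRF letters were in none of the 8. The promoter of H2-D1, the shared stretch between the starts of Psmb9 and Tap1, which are read in opposite directions, and the promoter of Psmb8 are given on the plus strand with every searched motif in capitals.
H2-D1, chr17:35262844-35263093: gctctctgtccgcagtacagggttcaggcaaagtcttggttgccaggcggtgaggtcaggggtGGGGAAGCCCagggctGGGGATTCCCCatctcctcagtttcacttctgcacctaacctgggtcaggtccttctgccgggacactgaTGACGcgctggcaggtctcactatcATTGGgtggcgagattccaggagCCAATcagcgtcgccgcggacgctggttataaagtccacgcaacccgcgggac
Psmb9 and Tap1, chr17:34187331-34187555: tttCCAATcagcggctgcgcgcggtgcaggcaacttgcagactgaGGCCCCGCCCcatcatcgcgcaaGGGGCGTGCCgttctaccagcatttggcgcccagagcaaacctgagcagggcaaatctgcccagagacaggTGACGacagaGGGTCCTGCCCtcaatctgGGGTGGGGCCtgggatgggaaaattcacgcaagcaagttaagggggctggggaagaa
Psmb8, chr17:34197945-34198194: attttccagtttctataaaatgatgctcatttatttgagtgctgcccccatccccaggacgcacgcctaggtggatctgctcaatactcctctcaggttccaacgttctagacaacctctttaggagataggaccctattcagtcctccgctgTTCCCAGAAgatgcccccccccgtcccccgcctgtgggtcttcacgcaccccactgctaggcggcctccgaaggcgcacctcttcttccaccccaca
A match describes letters, not a bound site. Only the patterns given were searched, so a window without a match may still hold a variant form of an element.

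A class and expression values were available for 3042 cells of the naive library and 7306 of the papain library, and 2 cell barcodes occurred in both. The naive library held 440 LCs, 578 cDC1s and 658, 659 and 707 cDC2s of low, intermediate and high CD301b. The papain library held 881 LCs, 235 cDC1s and 1470, 1827 and 2893 such cDC2s. Median depth was between 10768 UMIs per cell in naive LCs and 18290 in papain LCs, and in cDC1s it was 15806 and 12399. Levels are UMIs summed over the cells of a class and scaled to 1000000 counts (counts per 1000000, CPM), so that fewer cells of a kind and less RNA per cell cannot be told apart.

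The cDC1 class was checked against 8 cDC1 markers, whose summed level was 877 CPM in naive and 1249 CPM in papain cDC1s, against 429 to 739 CPM in the other classes. Irf8, the lineage factor of cDC1s, was at 566 and 830.3 CPM there. The mRNA of the defining receptor Xcr1 was low, at 16.9 and 9.44 CPM, but higher than the 0.306 to 6.94 CPM of the other classes. Clec9a was at 5.48 and 10.1 CPM, and Tlr3 at 1.05 CPM and at 0. In each library 6 of the 8 markers were highest in cDC1s. In the naive library Wdfy4 was not, with 11.5 CPM in cDC1s and 42.6 CPM in CD301b-lo cDC2s, nor was Batf3, with 241.2 CPM in cDC1s and 241.4 CPM in LCs. In the papain library Itgae, at 0.651 CPM in cDC1s and 1.20 CPM in LCs, and Tlr3 were not, on few UMIs, whereas Wdfy4 was highest in cDC1s at 4.56 CPM. Of other cell types, 4 T cell markers summed to 146 CPM in naive cDC1s and to 9.55 to 43.7 CPM in the other naive classes. In papain cDC1s they summed to 20.5 CPM. The 4 NK cell markers were at 10.0 CPM in naive and at 0 in papain cDC1s, and the 4 B cell markers at 35.2 and 31.6 CPM. The LC list was at 40.1 and 13.7 CPM in cDC1s, the cDC2 list at 47.4 and 35.8 CPM, the macrophage and monocyte list at 6.32 and 2.60 CPM and the plasmacytoid DC list at 218 and 321 CPM. Without cells that held a Cd3e or Trac UMI (78 of the 578 naive and 11 of the 235 papain cDC1s), none of the 1.5-fold calls given below for the 10 genes changed.

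The heavy chains and B2m were highest in cDC1s in both libraries. H2-K1, one of the classical heavy chains of B6 mice, was at 3289 CPM in LCs, 4329 CPM in cDC1s and 2765, 3339 and 3506 CPM in cDC2s of low, intermediate and high CD301b of the naive library. After papain, H2-K1 was at 3171 CPM in LCs, 5086 CPM in cDC1s and 3682, 4037 and 4365 CPM in cDC2s of low, intermediate and high CD301b. Thus cDC1s lay above each other class, the Poisson intervals of cDC1s and the next class were apart, and the lowest class was the CD301b-lo cDC2 in the naive library and the LC in the papain library.

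H2-D1, the second classical heavy chain, was at 2992 CPM in LCs, 4009 CPM in cDC1s and 2788, 3104 and 3260.2 CPM in cDC2s of low, intermediate and high CD301b of the naive library. Papain-library cells held H2-D1 at 3035 CPM in LCs, 4988 CPM in cDC1s and 3746, 3733 and 3808 CPM in cDC2s of low, intermediate and high CD301b, where the CD301b-lo and CD301b-int intervals overlapped. The range over the classes was narrow, from the lowest to the highest class 1.44-fold in the naive library and 1.64-fold in the papain library. B2m was at 4145 CPM in LCs, 5522 CPM in cDC1s and 3371, 3983 and 4313 CPM in cDC2s of low, intermediate and high CD301b of the naive library. Its levels in papain-library cells were 3332 CPM in LCs, 5472 CPM in cDC1s and 4018, 4296 and 4594 CPM in cDC2s of low, intermediate and high CD301b. The lowest of the 10 groups were papain LCs and naive CD301b-lo cDC2s, whose intervals overlapped.

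**Figure D1:**
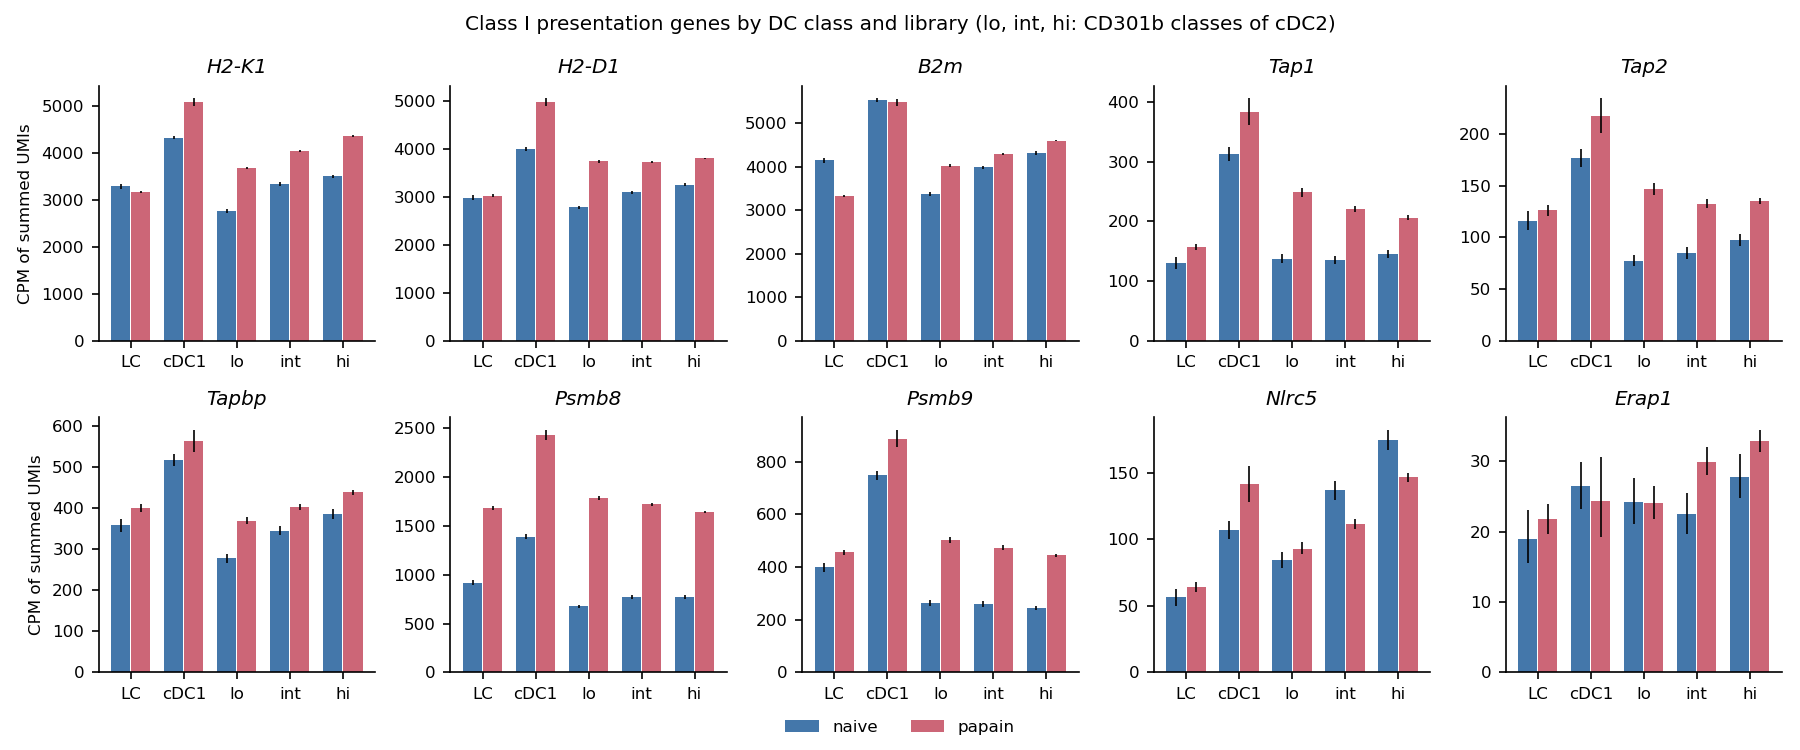
Level of each of the 10 genes (y axis, CPM of summed UMIs, from 0 with a scale of its own in each panel) by DC class (x axis) in the naive and papain libraries, with bars for the level and lines for the 95% Poisson interval. cDC1s are the highest class for 8 genes in both libraries, whereas Nlrc5 is highest in CD301b-hi cDC2s, with an interval that overlaps that of cDC1s in the papain library.

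The peptide transporter differed more between classes than the heavy chains did. Tap1 was at 129.6 CPM in LCs, 313 CPM in cDC1s and 137, 135 and 146 CPM in cDC2s of low, intermediate and high CD301b of the naive library. The 4 other naive classes had overlapping neighbours in this order, and cDC1s lay 2.15-fold to 2.41-fold above them. In the papain library Tap1 was at 157 CPM in LCs, 384 CPM in cDC1s and 249, 221 and 206 CPM in cDC2s of low, intermediate and high CD301b, all 5 apart. Tap2, the partner of Tap1, was at 116 CPM in LCs, 177 CPM in cDC1s and 77.5, 84.8 and 97.3 CPM in cDC2s of low, intermediate and high CD301b of the naive library. After papain, Tap2 was at 126 CPM in LCs, 217 CPM in cDC1s and 147, 133 and 135 CPM in cDC2s of low, intermediate and high CD301b. Among the classes other than cDC1s, Tap2 was highest in LCs of the naive library, while papain LCs were lowest with an interval that overlapped that of CD301b-int cDC2s.

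With few UMIs per cell, the transporter was not read in every cell. A Tap1 UMI was found in 91.3% of naive cDC1s (88.8% to 93.5%, exact Clopper-Pearson) and in 67.5% to 79.5% of the other naive classes. At an equal depth of 8392 UMIs per cell, leaving out 47 shallower cDC1s and 55 to 127 cells of each other naive class, the shares were 83.7% and 59.3% to 63.7%. In papain cDC1s the share was 94.5% unthinned and 92.5% at equal depth, against 68.3% to 79.0% at equal depth in the other papain classes. cDC1s thus lay above the other classes at equal depth too.

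Tapasin, which holds empty class I molecules at the transporter, had its highest level in cDC1s too. Tapbp was at 358 CPM in LCs, 517 CPM in cDC1s and 278, 345 and 386 CPM in cDC2s of low, intermediate and high CD301b of the naive library, and at 399.8 CPM in LCs, 564 CPM in cDC1s and 369, 403 and 439 CPM in cDC2s of low, intermediate and high CD301b of the papain library.

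The immunoproteasome subunits showed both the class order and the library. Psmb8, which replaces the constitutive Psmb5, was at 917 CPM in LCs, 1387 CPM in cDC1s and 674, 771 and 771 CPM in cDC2s of low, intermediate and high CD301b of the naive library. After papain, Psmb8 was at 1685 CPM in LCs, 2428 CPM in cDC1s and 1780.0, 1722 and 1641 CPM in cDC2s of low, intermediate and high CD301b, so that every papain class lay above every naive class. Psmb9, which replaces Psmb6, was at 399 CPM in LCs, 749 CPM in cDC1s and 263, 259.6 and 244 CPM in cDC2s of low, intermediate and high CD301b of the naive library. Papain-library cells held Psmb9 at 457 CPM in LCs, 888 CPM in cDC1s and 503, 474 and 445 CPM in cDC2s of low, intermediate and high CD301b. Naive cDC1s thus held more Psmb9 than any papain class other than cDC1s, and naive LCs stood between cDC1s and cDC2s.

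Nlrc5 and Erap1 did not share this order. Nlrc5 was at 56.3 CPM in LCs, 107 CPM in cDC1s and 84.4, 137 and 174 CPM in cDC2s of low, intermediate and high CD301b of the naive library, where all 5 intervals were apart and cDC1s came after both CD301b-hi and CD301b-int cDC2s. After papain, Nlrc5 was at 64.0 CPM in LCs, 141 CPM in cDC1s and 93.0, 111 and 147 CPM in cDC2s of low, intermediate and high CD301b, and the intervals of CD301b-hi cDC2s (143 to 149.9 CPM) and cDC1s (128 to 155 CPM) overlapped. Nlrc5 was lowest in LCs in both libraries, and among cDC2s it was higher from CD301b-lo over CD301b-int to CD301b-hi. At equal depth an Nlrc5 UMI was found in 29.9% of naive LCs, 50.4% of naive cDC1s and 66.8% of naive CD301b-hi cDC2s, and unthinned in 36.6%, 66.1% and 80.6%. Erap1 was the most sparsely counted, at 19.0 to 32.9 CPM over the 10 groups with 75 to 1662 UMIs in each, and no difference of cDC1s from the class next to them was detectable at this depth.

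Set against the 4 other classes pooled, cDC1s of the naive library had at least 1.5-fold higher levels of 5 of the 10 genes (Psmb8, Psmb9, Tap1, Tap2 and Tapbp) and lower levels of none. Over the 7515 genes of at least 10 CPM in either group, 10.7% were at least 1.5-fold higher in cDC1s and 15.8% at least 1.5-fold lower. In the papain library 3 genes (Psmb9, Tap1 and Tap2) were at least 1.5-fold higher and none lower, beside 9.20% higher and 16.8% lower of 7257 genes. The median log2 ratio of the 10 genes was 0.54 in the naive library and 0.45 in the papain library, while that of all genes was -0.08 and -0.13. No test of the 10 genes as a list was run. Of the 5 genes past 1.5-fold in the naive library, Tap1 and Psmb9 share the stretch between them shown above, and Psmb8 holds neither TGACG nor ATTGG in its window. Tapbp holds ATTGG alone, and Tap2 had no window. H2-K1, H2-D1 and B2m, which hold both motifs at the same spacing, stayed below 1.5-fold with all cDC1s taken. They passed it in the naive library with the cDC1s of higher XCR1 antibody value described below. Any link between these letters and the ratios was not tested.

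Psmb9 stood furthest from the other classes, with a log2 ratio of 1.44 (1.40 to 1.48) in the naive library and 0.94 (0.88 to 0.99) in the papain library. The ratio of Tap1 was 1.18 (1.11 to 1.24) and 0.88 (0.79 to 0.96), and that of Tap2 0.95 (0.86 to 1.03) and 0.69 (0.58 to 0.80). Psmb8 had a ratio of 0.85 (0.82 to 0.88) in the naive library and, below 1.5-fold, of 0.52 (0.49 to 0.56) in the papain library. Tapbp, at 0.59 (0.55 to 0.64) and 0.45 (0.38 to 0.52), lay just inside and then outside that bound. H2-K1 (0.42 and 0.35), H2-D1 (0.39 and 0.45) and B2m (0.48 and 0.37) were higher in cDC1s by less than 1.5-fold, with intervals above 0 in both libraries. The ratio of Nlrc5 was -0.21 (-0.31 to -0.11) in the naive library and 0.28 (0.14 to 0.42) in the papain library, on opposite sides of 0. Erap1 had intervals that included 0, at 0.14 (-0.07 to 0.34) and -0.25 (-0.60 to 0.08). For 8 genes, all but Nlrc5 and Erap1, the interval of cDC1s against each of the 4 other classes taken alone was also above 0 in both libraries.

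**Figure D2:**
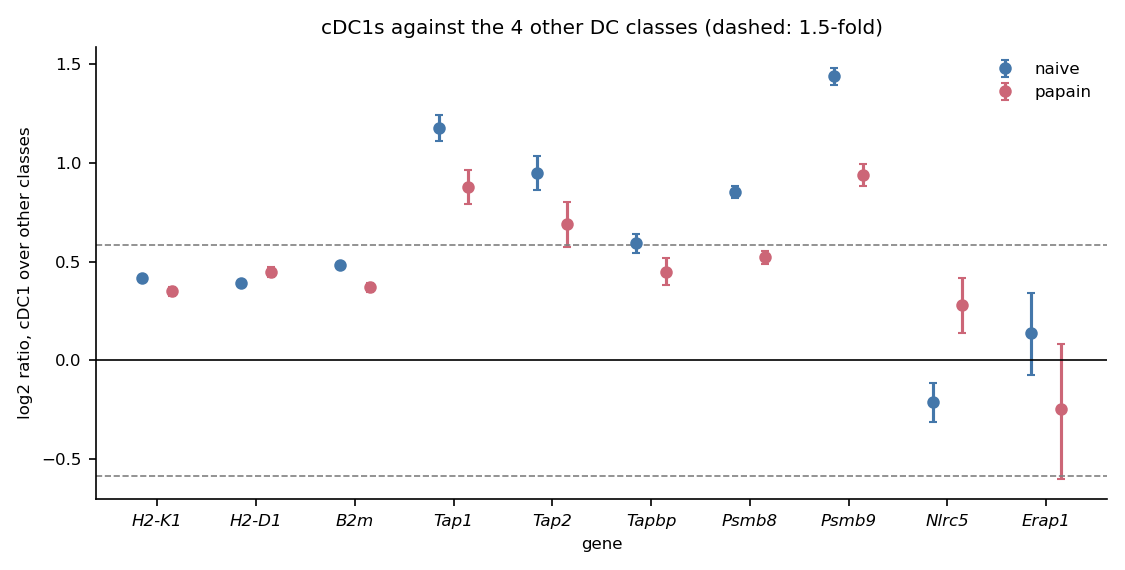
The log2 ratio of cDC1s over the 4 other classes pooled (y axis) for each gene (x axis) in the naive and papain libraries, with 95% counting intervals and dashed lines at 1.5-fold. Psmb9 and Tap1 lie highest in both libraries, and Nlrc5 changes its side of 0 between them.

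The choice of cDC1s moved the smaller of these ratios. When only cDC1s at or above the median XCR1 antibody value of their library were taken (289 naive and 118 papain cells), the naive log2 ratio was 0.61 for H2-K1, 0.62 for H2-D1 and 0.65 for B2m, all past 1.5-fold, and that of Nlrc5 was 0.05. In the papain library Psmb8 then passed 1.5-fold, with a log2 ratio of 0.60.

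Of 46 further genes of the pathway, 40 could be compared in the naive library, and 8 were at least 1.5-fold higher and 4 lower in cDC1s. Over all genes, as given above, 10.7% were higher and 15.8% lower, so lower genes were not more frequent in the list. The higher genes included Tapbpl, a second peptide editor beside tapasin (log2 ratio 1.39 (1.32 to 1.46)), Psme1, a subunit of the proteasome activator PA28 (0.99 (0.95 to 1.03)), Psmb10, the remaining inducible subunit (0.92 (0.86 to 0.99)), and the nonclassical heavy chain H2-T22 (1.13 (1.06 to 1.21)). H2-T23, Pdia3, Psmb6 and Irf8 were also higher. The lower genes were Ciita, the class II transactivator related to Nlrc5 (-2.34 (-2.69 to -2.01)), Wdfy4 (-0.61 (-0.92 to -0.32)) and Rab43 (-1.14 (-1.32 to -0.95)), both known for cross-presentation, and Jak2 (-0.95 (-1.04 to -0.87)). Of the other genes listed for cross-presentation, Sec22b was at 0.15 (-0.02 to 0.33). Clec9a, under the floor of 10 CPM and so not counted, was at 2.51 (1.86 to 3.17). In the papain library Rab43 was at -0.03 and Sec22b at 0.21, and Wdfy4, under that floor, was at 1.45 (0.55 to 2.23).

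In the papain library 41 of the 46 could be compared, 8 being at least 1.5-fold higher (Cd1d1, Clec9a, H2-K2, Ifnar1, Irf8, Pdia3, Psme1 and Tapbpl) and 1 lower (Ciita). Over all genes 9.20% were higher and 16.8% lower. Tapbpl and Psme1 had log2 ratios of 0.66 (0.57 to 0.74) and 0.64 (0.59 to 0.69), while Psmb10 and H2-T22 were at 0.37 (0.29 to 0.45) and 0.40 (0.29 to 0.51). The median over the compared genes was 0.17 in the naive library and 0.19 in the papain library, beside -0.08 and -0.13 for all genes. Of the 4 class II genes H2-Aa, H2-Ab1, H2-Eb1 and Cd74, all 4 were at least 1.5-fold lower in naive cDC1s and 1 (H2-Ab1) in papain cDC1s.

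Taken as a share of all UMIs, the 10 genes made up 1.71% in naive and 2.02% in papain cDC1s, against 1.05% to 1.29% and 1.24% to 1.58% in the other classes. H2-K1, H2-D1 and B2m held 76.6% to 85.7% of these UMIs. Cells of a class varied around this level. In naive cDC1s the quartiles of cells lay between 1.35% and 2.06%, and in naive CD301b-hi cDC2s between 1.09% and 1.58%, so these ranges overlapped. In papain cDC1s the range was 1.70% to 2.39%, against 1.38% to 1.84% in papain CD301b-hi cDC2s. No cell of any class lacked UMIs of all of H2-K1, H2-D1 and B2m.

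**Figure D3:**
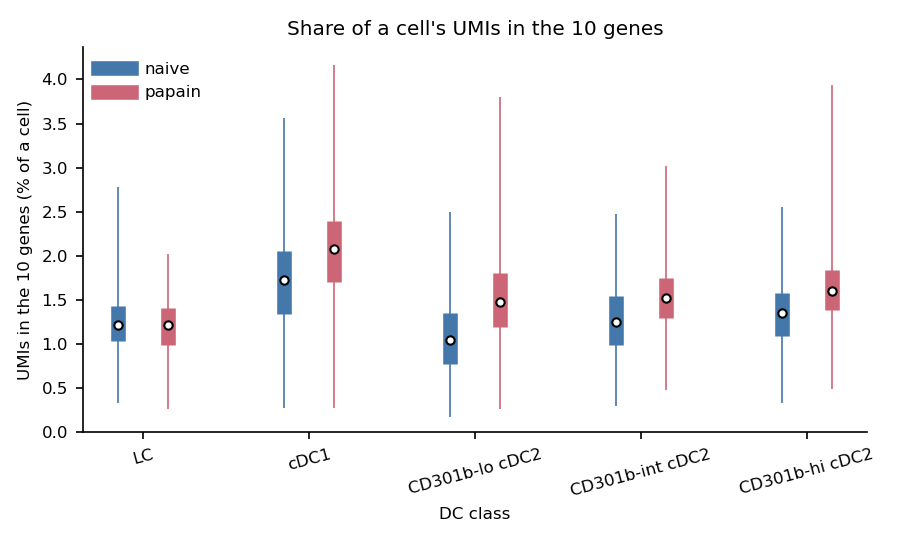
Share of a cell's UMIs in the 10 genes (y axis, percent) by DC class (x axis) and library, with the median as a circle, the quartiles as a thick bar and the lowest and highest cell as a thin line. The medians of cDC1s, 1.73% naive and 2.08% papain, are the highest of each library, while single cells overlap between all classes.

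Between cells of a class, H2-K1 and H2-D1 varied together, with Pearson's r of 0.54 to 0.77 over the 10 groups. It was 0.43 to 0.73 for H2-K1 and B2m, 0.27 to 0.66 for Psmb8 and Psmb9, and 0.10 to 0.45 for Tap1 and Psmb9, which share a promoter. These are descriptions over 235 to 2893 cells, which share their library and the depth of each cell, and H2-K1 and H2-D1 may also share reads.

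Between the libraries, Psmb8 was higher in the papain library in every class. The log2 ratio of papain over naive was 0.88 (0.83 to 0.92) in LCs, 0.81 (0.77 to 0.85) in cDC1s, 1.40 (1.36 to 1.44) in CD301b-lo, 1.16 (1.12 to 1.19) in CD301b-int and 1.09 (1.06 to 1.12) in CD301b-hi cDC2s. In cDC1s and in LCs it was the only one of the 10 genes at least 1.5-fold higher, beside 10.3% of 7238 genes in cDC1s and 14.4% of 7582 in LCs. In CD301b-lo and CD301b-int cDC2s it was joined by Psmb9, Tap1 and Tap2, giving 4 of 10 genes in each, beside 11.0% and 10.7% of all genes. In CD301b-hi cDC2s it was joined by Psmb9, beside 10.2% of all genes. None of the 10 was at least 1.5-fold lower in any class, where 9.21% of genes were lower in LCs, 12.6% in cDC1s and 14.2%, 10.5% and 8.39% in the cDC2 classes.

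Psmb9 had log2 ratios of 0.87 to 0.94 in the cDC2 classes, but 0.25 (0.18 to 0.31) in cDC1s and 0.19 (0.13 to 0.26) in LCs. Tap1 followed with 0.50 to 0.86 in cDC2s, 0.30 in cDC1s and 0.28 in LCs, and Tap2 with 0.47 to 0.92, 0.30 and 0.12. The values of Tapbp were smaller, from 0.12 in cDC1s to 0.41 in CD301b-lo cDC2s. Across these 4 genes and Psmb8, CD301b-lo cDC2s had the largest value of the 5 classes. This class also had the lowest naive levels of Psmb8, Tap2 and Tapbp.

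H2-K1 and B2m differed in sign between classes, while for H2-D1 the sign in LCs was not settled. H2-K1 had a log2 ratio of -0.05 (-0.08 to -0.03) in LCs, 0.23 (0.21 to 0.26) in cDC1s and 0.27 to 0.41 in cDC2s. B2m was -0.31 (-0.34 to -0.29) in LCs, -0.01 (-0.04 to 0.01) in cDC1s and 0.09 to 0.25 in cDC2s, and in CD301b-hi cDC2s it was -0.004 once the ratios were centred on the median gene. H2-D1 was 0.02 (-0.01 to 0.05) in LCs, 0.32 (0.29 to 0.34) in cDC1s and 0.22 to 0.43 in cDC2s. Its value in LCs was -0.04 when centred on the median gene, taken as a mean over cells, or taken without the deepest 5% of cells. Nlrc5 was higher in papain cDC1s, at 0.40 (0.24 to 0.57), in LCs, at 0.19 (0.001 to 0.37), and in CD301b-lo cDC2s, at 0.14 (0.02 to 0.26), and lower in CD301b-int and CD301b-hi cDC2s, at -0.30 (-0.39 to -0.21) and -0.25 (-0.32 to -0.18). Erap1 ranged from -0.12 to 0.42.

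**Figure D4:**
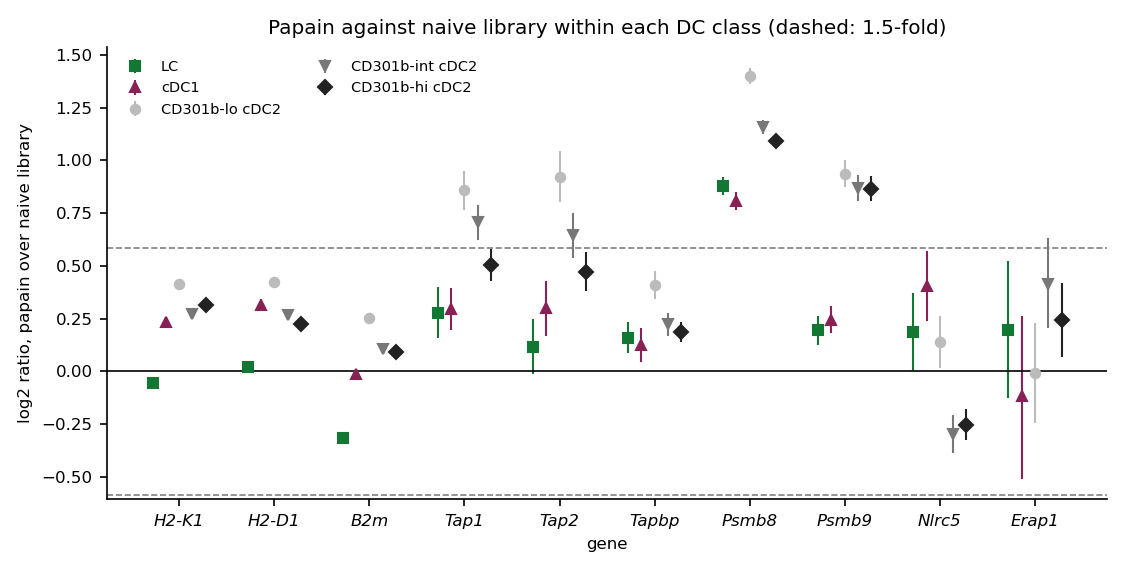
The log2 ratio of the papain over the naive library (y axis) for each gene (x axis) within each of the 5 DC classes, with 95% counting intervals and dashed lines at 1.5-fold. Psmb8 lies above 1.5-fold in all 5 classes, and Psmb9 in the 3 cDC2 classes alone.

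The classes themselves differed between the libraries in measured ways. Naive cDC1s had a median CD326 antibody value of 1.63 and papain cDC1s of 0.436, on a natural-log scale of tags relative to all antibodies of the cell, and their median MHC II antibody value was 4.73 and 3.97. LCs had a median MHC II value of 5.12 and 4.14 and a median depth of 10768 and 18290 UMIs. The part of these differences in the ratios was not tested. With only the cDC1s at or above the median XCR1 value, the papain over naive log2 ratio of Psmb9 in cDC1s was -0.002 and that of Tapbp -0.01, while Psmb8 stayed above 0, at 0.66.

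Of the further genes of the pathway, Psme2, the second PA28 subunit, was at least 1.5-fold higher in the papain library in all 5 classes, with log2 ratios of 1.14 in cDC1s to 1.78 in CD301b-lo cDC2s. Cd1d1, a lipid-presenting partner of B2m, was likewise higher in all 5, from 0.75 in CD301b-hi to 2.58 in CD301b-lo cDC2s. Psmb10, Psme1 and Tapbpl passed 1.5-fold in the 3 cDC2 classes, at 1.27 to 1.37, 0.91 to 1.13 and 0.88 to 1.19, and not in cDC1s or LCs. In cDC1s Psmb10 was at 0.58 (0.49 to 0.68), just outside the bound. The constitutive Psmb5 was also at least 1.5-fold higher in LCs and all cDC2 classes, from 0.73 to 0.99, and at 0.25 (0.08 to 0.43) in cDC1s.

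The regulator Irf1, which relays interferon signals, stayed below 1.5-fold in every class, at -0.24 to 0.50. Ciita was at least 1.5-fold lower in the 3 cDC2 classes, at -2.51 to -1.20. Over the whole list, 4 of 41 compared genes were at least 1.5-fold higher and 2 lower in cDC1s, 5 and 3 of 39 in LCs, and 10 and 5 of 41, 8 and 5 of 41 and 10 and 3 of 40 in cDC2s of low, intermediate and high CD301b. The shares of all genes past 1.5-fold, given above, were 10.3% higher and 12.6% lower in cDC1s and 14.4% and 9.21% in LCs, so that the counts of the list lay near or below them there. In cDC2s of low, intermediate and high CD301b they were 11.0%, 10.7% and 10.2% higher and 14.2%, 10.5% and 8.39% lower. There the counts of higher genes lay above these shares and those of lower genes near them. The list was chosen with earlier results known, and the difference was not tested. The median log2 ratio of the list was 0.24 in cDC1s and 0.20 in CD301b-lo cDC2s, beside 0.02 and 0.01 for all genes. In the other classes it was closer to that of all genes, at 0.07 beside 0.06 in LCs, 0.11 beside 0.05 in CD301b-int and 0.13 beside 0.09 in CD301b-hi cDC2s. The class II genes H2-Ab1 and H2-Eb1 were at least 1.5-fold lower in the papain library in all 5 classes. H2-Aa was so in LCs and in CD301b-int and CD301b-hi cDC2s, and Cd74 in CD301b-int and CD301b-hi cDC2s. All 4 had intervals below 0 in every class.

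For Psmb9, Psmb8, Tap1, Tap2 and Tapbp the distance between cDC1s and the other classes was smaller in the papain library, since the others differed more between libraries. The papain over naive log2 ratio of cDC1s minus that of the pooled others was -0.50 for Psmb9, -0.33 for Psmb8, -0.30 for Tap1, -0.26 for Tap2 and -0.14 for Tapbp. It was -0.07 for H2-K1, 0.06 for H2-D1 and -0.11 for B2m, and 0.49 for Nlrc5, where cDC1s were higher and the pooled others lower (-0.09) in the papain library. Erap1 had -0.39 on 75 UMIs in papain cDC1s. These differences have no test, with 1 library per condition.

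The kit tags the 3′ end of each transcript, so a catalytic pair of the proteasome can be described by the share of its UMIs that came from the inducible subunit, without correction for length. Psmb8 made up 93.1% of Psmb8 plus Psmb5 UMIs in naive cDC1s (92.7% to 93.5%, exact Clopper-Pearson) and 95.2% in papain cDC1s (94.7% to 95.7%). In the cDC2 classes it was 89.7% to 90.9% in the naive library and 92.5% to 93.2% in the papain library. In LCs, where Psmb5 was higher too, it was 91.5% and 90.8%, with overlapping intervals.

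Psmb9 separated cDC1s most clearly, with 85.9% of Psmb9 plus Psmb6 UMIs in naive and 85.1% in papain cDC1s, against 75.2% to 80.9% and 74.3% to 77.8% in the other classes. In LCs the share was 80.9% in the naive (79.4% to 82.4%) and 74.3% in the papain library (73.5% to 75.1%). Although Psmb9 itself was higher in papain cDC2s, its share in cDC2s was 75.2% to 77.5% in naive and 76.7% to 77.8% in papain cells, and the constitutive Psmb6 was also at least 1.5-fold higher in all 3 cDC2 classes. Psmb10 made up 92.8% to 97.4% of Psmb10 plus Psmb7 UMIs over all groups, with 35 to 755 Psmb7 UMIs behind each value.

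**Figure D5:**
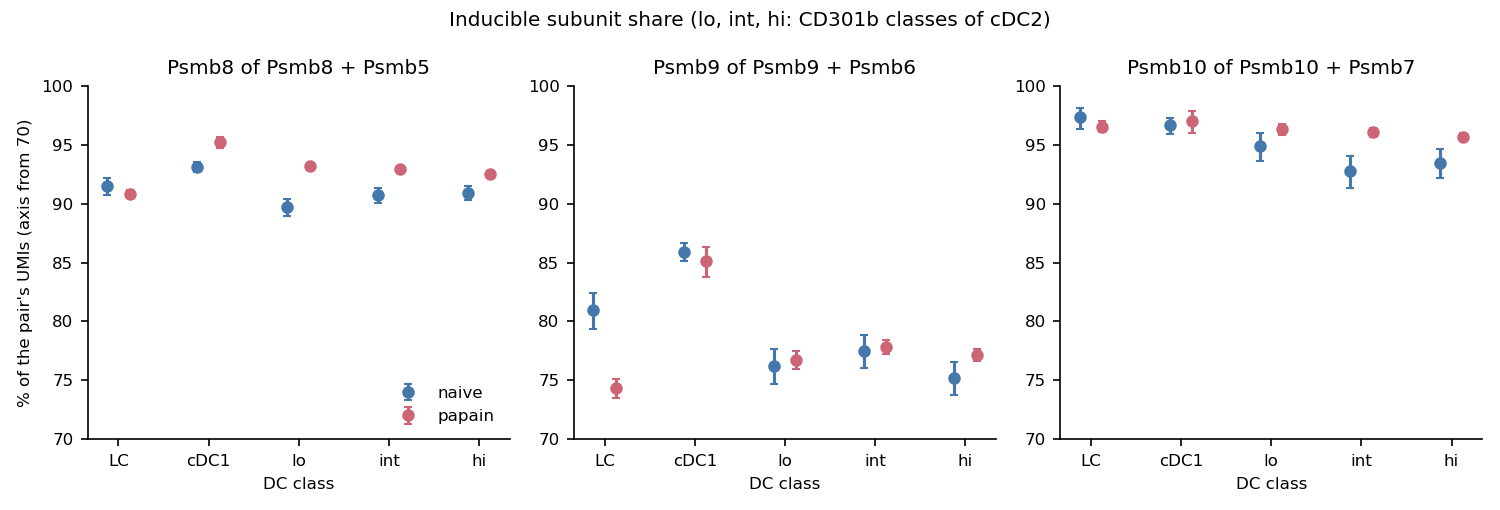
Share of a catalytic pair's UMIs that came from the inducible subunit (y axis, percent, not starting at 0) by DC class (x axis) in the naive and papain libraries, one panel for each pair, with 95% Clopper-Pearson intervals. cDC1s hold the highest Psmb8 and Psmb9 shares in both libraries.

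Nlrc5 was set beside the rest of the 10 genes within each class, without the same comparison over all genes. Cells with an Nlrc5 UMI had higher summed CPM of H2-K1, H2-D1 and Tapbp than cells without one in 10 of 10 groups, with median log2 ratios of 0.19, 0.21 and 0.22. B2m and Tap1 were higher in 9 of 10 groups (medians 0.13 and 0.30), Tap2 and Erap1 in 8 (0.23 and 0.18), and Psmb8 and Psmb9 in 7 (0.08 and 0.07). In naive CD301b-hi cDC2s, H2-K1 was at 3654 CPM in the 570 cells with an Nlrc5 UMI and at 2851 CPM in the 137 without. In papain cDC1s the same values were 5121 and 4986 CPM. Cells with an Nlrc5 UMI were also deeper in all 10 groups, with median depths of 15229.5 against 14425 UMIs in naive CD301b-hi cDC2s and 24559.5 against 15067 in papain LCs, and the part of depth in these ratios was not tested.

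Across the 10 groups, Pearson's r of log2(CPM + 1) with Nlrc5 was 0.70 for Erap1, 0.52 for H2-K1, 0.51 for B2m and 0.48 for H2-D1. It was 0.36 for Tapbp, 0.31 for Tap1, 0.09 for Tap2, 0.05 for Psmb8 and -0.05 for Psmb9. Among 3279 genes of at least 50 CPM in some group, those most like Nlrc5 included Rassf2 (0.97), Scn2b (0.95), Galnt1 (0.94) and Sh3bp1 (0.94). Those most like the mean of the 10 genes were Dok1 (0.98), Mtif3 (0.98), Rhog (0.97), Csnk2a2 (0.97) and Scand1 (0.96), all 5 highest in papain cDC1s. Dok1 ranged from 103 CPM in naive CD301b-lo cDC2s to 371 CPM. The 10 points share 2 libraries, so these values are descriptions.

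Within the cDC2s, the mRNA clusters that the authors deposited had a wider range of these genes than the CD301b classes, which are fewer and larger. The clusters were formed from expression values that may include these genes, so their levels are a description. Among 7 naive clusters of at least 50 cells, Nlrc5 was between 50.2 CPM (273 cells) and 253 CPM (432 cells), a 5.03-fold range, and H2-K1 was between 1740.3 CPM (246 cells) and 4325 CPM. Both were thus highest in the same cluster of 432 cells. Among 9 papain clusters, 1 cluster of 216 cells was lowest for all 10 genes, with 2337 CPM of H2-K1, 69.9 CPM of Tap1 and 34.8 CPM of Nlrc5. Another papain cluster of 671 cells was highest for H2-D1, Tap1, Tap2, Psmb8 and Psmb9, with 365 CPM of Tap1, close to the 384 CPM of papain cDC1s. H2-K1 and Nlrc5 were highest in yet another papain cluster of 1294 cells, at 4954 and 198 CPM.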

How the data were processed

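CITE-seq libraries (Chromium 3′ v3) were made from sorted MHCIIhi CD11c+ B220- cells, 1 naive and 1 papain. The authors aligned them to mm10 with Cell Ranger 3.0.1 and processed them in Partek, and the gene values they deposited are log2(CPM + 1) per cell. The deposited antibody values are natural log (ln) values relative to all antibodies of the cell, beside raw tag counts and counts of expressed genes. The deposited total count per cell is a sum of log2 values (a score) and the deposited mitochondrial percent a share of it, so neither was used. UMIs were recovered by dividing each CPM by the CPM of 1 UMI, the lowest value of the cell, and 1000000 over that value gave the depth. The listed genes held 81.0% to 97.9% of it. All values tested, up to 50 UMIs, came out whole within 0.02.

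UMIs were summed by library and deposited class with numpy 2.4.6, scipy 1.17.1 and pandas 2.3.3 (Python 3.11.15). Ratios have no pseudocount and an exact interval from the binomial split of UMIs. A gene was called where the ratio reached 1.5-fold and the larger level reached 10 CPM. Shares of cells were also computed at 8392 UMIs, the 10th percentile of depth. No doublet caller was run, and the scripts were tested on simulated data. With 1 library per condition, no test was made.

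The 10 genes, the pathway list and the markers were chosen with earlier results of these data known. Genes named are these lists and the 5 most like the mean of the 10 and like Nlrc5, and a few of them are not reported here. The authors' cluster labels were used as a description.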

Additional observations from a re-analysis of the deposited data

Results flagged for a closer look

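In 3 cases the papain over naive log2 ratio had opposite signs in a pair of DC classes, each with a counting interval that did not include 0. The difference itself was not tested, since each condition was 1 library. For H2-K1 the ratio was -0.05 in LCs and 0.41 in CD301b-lo cDC2s, 0.47 apart. For B2m it was -0.31 in LCs and 0.25 in CD301b-lo cDC2s, 0.57 apart. Papain LCs were deeper than naive LCs, with median depths of 18290 and 10767.5 UMIs per cell, and the part of depth in these values was not tested. For Nlrc5 the ratio was 0.40 in cDC1s and -0.30 in CD301b-int cDC2s, 0.70 apart, on 1013 naive and 434 papain UMIs in cDC1s.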

How the results depend on the processing

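No paired analysis was possible because each condition was 1 library and the labels carry no replicate numbers, and for the same reason no replicate could be left out. The number of the 10 genes called higher depended most on the fold required. At a log2 ratio of 0.32 or more it was 8 in naive cDC1s and 8 in papain cDC1s against the other classes, and between libraries 2 in cDC1s, 7 in CD301b-lo and 4 in CD301b-hi cDC2s. At 2-fold it was 2 and 0 in naive and papain cDC1s, 0 in LCs and cDC1s between libraries, and 1 in each of the 3 cDC2 classes. With the cDC1s at or above the median XCR1 antibody value, it was 8 in the naive library. The shares of all genes under these settings are not reported here, so these counts have no background beside them. The shares given above for 1.5-fold and all cDC1s do not apply to them. The other 151 counts kept within 1.5 times their value. Under the alternatives, 108 log2 ratios moved beyond their counting interval, 502 did not, and none turned a called direction. With 10 CPM added, Tapbp of naive cDC1s was at 0.58, below 1.5-fold. Centring on the median gene, which shifted the papain cDC1 comparison by 0.13, put Psmb8 there at 0.65, past 1.5-fold. Leaving out cells with T cell or B cell UMIs, cells of few genes or high mitochondrial share, or the deepest 5% of cells changed no call. Without replicates, counting intervals understate the error of every comparison, and Erap1 and Nlrc5 have the fewest UMIs.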

Other observations

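Droplets with expression values but no antibody class entered no comparison. In the naive library 237 of them held a Cd3e or Trac UMI and 192 did not, and in the papain library 241 and 49. Those with such a UMI had B2m at 2082 CPM (naive) and 1543 CPM (papain), against 4280 and 4262 CPM in the classified cells of the same library. Psmb8 was at 467 and 520.0 CPM in them, against 896 and 1709 CPM in classified cells. Nlrc5 was at 62.5 and 45.4 CPM. The naive droplets without a Cd3e or Trac UMI were deep, with a median of 27043.5 UMIs, and held B2m at 4517 CPM and Tap1 at 186 CPM, near the classified cells.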
